A study of Mus musculus with 6 samples.

Results

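The 10 genes described here encode subunits of Polycomb repressive complex 2 (PRC2). They were chosen by name rather than by their values, but with earlier results of these data known. Ezh1, Ezh2, Eed, Suz12, Jarid2, Mtf2, Phf1, Phf19, Rbbp4 and Rbbp7 were found by GENCODE gene name among the 55416 genes of the count table, and all 10 passed the filter on low counts that left 15746 genes for testing. RNA-seq was performed on epiblast-like cells (EpiLCs), the formative pluripotent cells that mouse embryonic stem cells (mESCs) become after 48 h with bFGF, Activin A and KSR, a serum replacement, in N2B27 medium on fibronectin. Both groups of 3 biological replicates derive from 46C mESCs, a line in which GFP is driven by the neural gene Sox1: WT EpiLCs are the parental line, and KO EpiLCs are a single CRISPR/Cas9 clone in which both Oct6 (Pou3f1) alleles carry an inserted adenine that shifts the reading frame. Since the KO cells are 1 clone, a difference between the groups cannot be told apart from a feature of that clone.

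PRC2 places methyl groups on lysine 27 of histone H3, a mark of silent developmental genes. EZH2 or its relative EZH1 is the catalytic subunit, EED and SUZ12 hold the enzyme in its active form, and RBBP4 or RBBP7 binds histones. The accessory subunits divide the complex into the form called PRC2.1, which carries one of the Polycomb-like proteins PHF1, MTF2 or PHF19, and the form called PRC2.2, which carries JARID2 and AEBP2. In pluripotent cells PRC2 covers the CpG islands of many lineage regulators, and it is needed for orderly differentiation rather than for self-renewal.

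The upstream sequences of the catalytic and core genes are shown because 3 of these 4 genes (Ezh2, Ezh1 and Eed) passed the test described below, with Suz12 as the remaining core gene, and the study concerns a POU factor, whose family binds the octamer ATGCAAAT. Each stretch is the 250 bases just before the annotated 5′ end of the gene on its own strand, read from GRCm39. The window of Ezh2 is chr6:47572332-47572581 on the minus strand, that of Ezh1 chr11:101117316-101117565 (minus), that of Eed chr7:89630218-89630467 (minus) and that of Suz12 chr11:79883641-79883890 (plus). Capitals mark matches, on either strand, to the octamer, to an NRF1 motif (the 10-base palindrome in capitals under Eed), to an ETS motif (CCGGAAGT) or to one of 4 E2F motifs (TTTGGCGC, TTTCCCGC, TTTCGCGC and TTTGCCGC).
Ezh2: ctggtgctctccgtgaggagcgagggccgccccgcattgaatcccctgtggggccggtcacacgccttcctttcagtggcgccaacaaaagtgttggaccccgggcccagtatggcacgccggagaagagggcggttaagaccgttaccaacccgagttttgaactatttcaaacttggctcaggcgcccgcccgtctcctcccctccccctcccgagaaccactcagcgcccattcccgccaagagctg
Ezh1: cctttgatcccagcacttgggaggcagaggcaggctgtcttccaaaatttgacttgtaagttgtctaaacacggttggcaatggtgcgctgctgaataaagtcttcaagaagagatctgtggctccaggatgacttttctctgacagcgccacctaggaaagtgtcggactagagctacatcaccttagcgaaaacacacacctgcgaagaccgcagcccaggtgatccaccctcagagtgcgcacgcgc
Eed: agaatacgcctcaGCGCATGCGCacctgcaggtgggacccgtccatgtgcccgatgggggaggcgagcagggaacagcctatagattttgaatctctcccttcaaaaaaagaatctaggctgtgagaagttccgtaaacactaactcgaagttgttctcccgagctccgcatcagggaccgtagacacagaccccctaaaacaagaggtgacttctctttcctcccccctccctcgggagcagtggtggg
Suz12: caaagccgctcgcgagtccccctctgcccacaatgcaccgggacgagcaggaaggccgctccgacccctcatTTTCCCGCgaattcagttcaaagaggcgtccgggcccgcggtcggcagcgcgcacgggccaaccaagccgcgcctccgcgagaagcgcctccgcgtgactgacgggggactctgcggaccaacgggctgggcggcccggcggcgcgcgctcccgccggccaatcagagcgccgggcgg

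The octamer had no match in the windows of the 8 members whose canonical transcript starts within 100 bases of the annotated 5′ end, Phf19 and Jarid2 being the others. Among 11587 windows of the same length drawn from the genes tested by the same criterion, 1.59% held the octamer, 0.889% the NRF1 motif, 2.99% an E2F motif and 3.2% the ETS motif. Among those 8 members the only matches were the NRF1 motif of Eed and the E2F motif of Suz12. The windows of the 4 genes ranged from 52.4% G and C in Ezh1 to 73.2% in Suz12, around a median of 54% over all windows. A match, or the lack of one in these letters, says nothing about binding.

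Library totals ran from 10995505 to 14680930 counts, and Oct6 was counted in all 6 libraries, with a CPM (the count scaled to the TMM-normalized library size) of 122 to 161 in WT and 127 to 141 in KO libraries. Gene counts cannot show the inserted base, so this is no check of the genotype. The naïve markers named in the gene lists had a summed level of 245 to 255 CPM in WT libraries, against 335 to 416 in KO libraries, with 3 of 9 higher, and all 7 EpiLC markers were detected, 3 of them higher in KO EpiLCs. Markers of other lineages were low: primitive endoderm markers had a summed level of 6.39 to 8.43 CPM in WT and 6.56 to 18.4 CPM in KO libraries (4 of 6 tested, 2 higher), primitive streak markers to 6.02 to 6.57 and 9.03 to 12.1 CPM (1 of 5 tested, higher), neural markers to 31.6 to 39.9 and 22.4 to 24.2 CPM (2 of 5 tested, both lower) and trophoblast markers to 6.34 to 8.40 and 3.31 to 4.13 CPM (1 of 5 tested, lower). Of the lineage markers that define these types, 1 neural marker had no count in any library. For comparison with the marker counts, 11.8% of all genes tested were called higher and 12.5% lower in KO EpiLCs (adjusted p below 0.1). The part of these markers in the differences between groups was not tested, and in bulk RNA a change in the share of cells of a type and a change in RNA per cell cannot be told apart.

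Both catalytic subunits were lower in KO EpiLCs. Ezh2 (ENSMUSG00000029687.17, chromosome 6 of GRCm39, 47507073 to 47572331), the main methyltransferase of proliferating cells, was at 118, 137 and 136 CPM in the WT libraries (replicates 1, 2 and 3, here and in what follows) against 85.3, 90.3 and 90.9 CPM in the KO libraries. The 3 KO values all lay under the lowest WT value. Mean Ezh2 thus went from 130 ± 10.8 (SD, n = 3) to 88.8 ± 3.06 CPM, and the log2 fold change (log2FC, KO over WT) was −0.55 with an SE of 0.099 (edgeR quasi-likelihood test, Benjamini-Hochberg adjusted p = 5.46e-04), or 0.683 times the WT level. Ezh1 (ENSMUSG00000006920.15, chromosome 11, 101081934 to 101117315), the paralog that prevails in many non-dividing tissues, was at 39.5, 35.5 and 34.0 CPM in the WT libraries against 29.3, 24.1 and 24.5 CPM in the KO libraries. Again the groups did not overlap, and the log2FC was −0.48 with an SE of 0.12 (edgeR adjusted p = 0.0093), 0.715 times the WT level. Both calls held in every alternative fit. Leaving out single libraries moved Ezh2 between −0.62 and −0.52 and Ezh1 between −0.58 and −0.42.

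Of the core partners, Eed was called higher at the edge of the threshold and Suz12 was not called. Eed (ENSMUSG00000030619.11, chromosome 7, 89603862 to 89630217), which reads the methyl mark, was at 107, 107 and 123 CPM in the WT libraries against 145, 139 and 119 CPM in the KO libraries. KO replicate 3 lay below WT replicate 3, so the groups overlapped. Its log2FC of 0.26 (SE 0.10) met the limit of 0.1 narrowly, with an edgeR adjusted p of 0.0993. DESeq2's Wald test gave an adjusted p of 0.109, and the fits that omitted replicate 1 or 2 of WT EpiLCs, or replicate 1 or 2 of KO EpiLCs, gave log2FC values of 0.22, 0.22, 0.19 and 0.23 that no longer passed. Blocking on the replicate number gave Eed an adjusted p of 0.0535.

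Suz12 (ENSMUSG00000017548.16, chromosome 11, 79883891 to 79925421), the subunit onto which the accessory proteins dock, was at 174, 177 and 223 CPM in the WT libraries against 206, 221 and 234 CPM in the KO libraries. WT replicate 3 stood within the KO range. The log2FC was 0.20 with an SE of 0.11 (edgeR adjusted p = 0.225), and the block on replicate number brought the adjusted p to 0.0750 at a log2FC of 0.21. Without WT replicate 3 the log2FC was 0.33 and passed as well (edgeR adjusted p = 0.0379). Omitting any other single library left Suz12 uncalled, with an edgeR adjusted p of up to 0.521.

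The histone-binding pair shared by PRC2 and several other complexes showed no called change. Rbbp4 (ENSMUSG00000057236.11, chromosome 4, 129184867 to 129229170) was at 355, 422 and 380 CPM in the WT libraries against 412, 429 and 383 CPM in the KO libraries, with overlapping groups and a log2FC of 0.080 (95% interval −0.12 to 0.28). Rbbp7 (ENSMUSG00000031353.14, X chromosome, 161543356 to 161562099) was at 419, 407 and 419 CPM in the WT libraries against 359, 389 and 354 CPM in the KO libraries. All KO libraries of Rbbp7 lay below all WT libraries, yet the log2FC of −0.18 (95% interval −0.37 to 0.015) had an edgeR adjusted p of 0.210.

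Among the accessory subunits, none passed the test. Mtf2 (ENSMUSG00000029267.18, chromosome 5, 108213540 to 108256877), the Polycomb-like protein that binds unmethylated CpG-rich DNA, was at 388, 358 and 478 CPM in the WT libraries against 472, 463 and 452 CPM in the KO libraries. WT replicate 3 exceeded all KO libraries, and the log2FC of 0.18 (SE 0.11) had an edgeR adjusted p of 0.277. Without that library it was 0.31 (edgeR adjusted p = 0.0426). Omitting any other single library left Mtf2 uncalled, with an edgeR adjusted p of up to 0.647. Jarid2 (ENSMUSG00000038518.16, chromosome 13, 44882950 to 45075119), the PRC2.2 cofactor that helps recruit and stimulate the enzyme, was at 249.7, 248 and 251 CPM in the WT libraries against 269.9, 269 and 300.3 CPM in the KO libraries. Its groups did not overlap, and its log2FC was 0.17 (95% interval −0.029 to 0.36, edgeR adjusted p = 0.250).

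Phf1 (ENSMUSG00000024193.9, chromosome 17, 27152002 to 27156892) and Phf19 (ENSMUSG00000026873.10, chromosome 2, 34783764 to 34805063), the other Polycomb-like genes, were scarce. Phf1, with 47 to 82 counts per library, was at 6.05, 4.29 and 3.52 CPM in the WT libraries against 6.64, 4.17 and 3.76 CPM in the KO libraries. Phf19, with 74 to 110 counts per library, was at 6.49, 6.75 and 7.44 CPM in the WT libraries against 6.24, 6.87 and 7.90 CPM in the KO libraries. Both overlapped between groups, and replicate 1 had the highest Phf1 level in each group. Their log2FC values were 0.070 (95% interval −0.50 to 0.64) and 0.021 (95% interval −0.39 to 0.43), so the interval of Phf1 still held a change of the size seen for Ezh1.

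**Figure D1:**
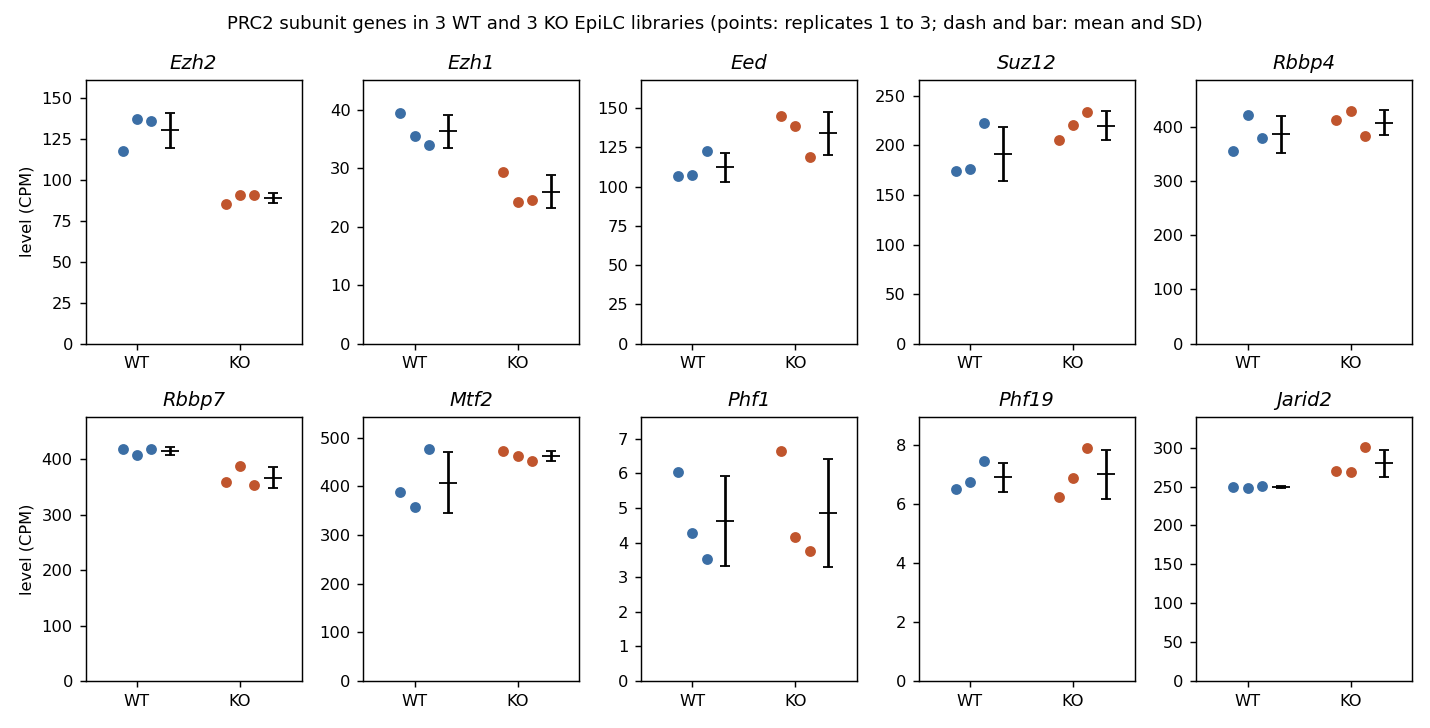
Level (CPM, axis from 0) of each PRC2 subunit gene in the 3 WT and 3 KO EpiLC libraries, with points for replicates 1 to 3 in order and a dash and bar for the mean and SD. The KO points lie below the WT points for Ezh2, Ezh1 and Rbbp7 and above them for Jarid2, and overlap them for the other 6 genes.

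Over the members, 3 of 10 passed an adjusted p of 0.1 (30%), against 24.3% of all genes tested. Eed alone was called higher, against 11.8% of all genes, and Ezh2 and Ezh1 were called lower, against 12.5%. In 4 of 10 the groups of libraries did not overlap, against 33.7% of all genes, with 1 member wholly above (16.6% of all genes) and 3 wholly below (17.1%). The median log2FC of the members was 0.075, and that of all genes tested 0.0014. By count the members were therefore close to the background.

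To compare the members with each other, levels were expressed per kb of exon, using the union of the annotated exons. In WT EpiLCs Mtf2 had the highest level, with 59.5 ± 9.08 CPM per kb (SD, n = 3), followed by Rbbp7 with 50.4 ± 0.814. Rbbp4 (30.4), Eed (29.2), Suz12 (25.4) and Jarid2 (23.2 CPM per kb) formed a run in which each gene's libraries overlapped those of the next. Ezh2 came next with 17.8 ± 1.47 CPM per kb and was separated from Jarid2 above and from Ezh1 below (3.93 ± 0.305). Phf19 and Phf1 were lowest at 1.28 CPM per kb each, and overlapped. In KO EpiLCs Eed stood above Rbbp4 and Phf1 above Phf19, each pair overlapping, while Ezh2 was at 12.2 ± 0.420 CPM per kb and Ezh1 at 2.81 ± 0.312. The length used matters here: per kb of the canonical transcript, Rbbp7 led with 181 CPM per kb in WT EpiLCs, Mtf2 had 101, and Ezh2 (42.1) came before Jarid2 (39.9) and Suz12 (39.2).

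**Figure D2:**
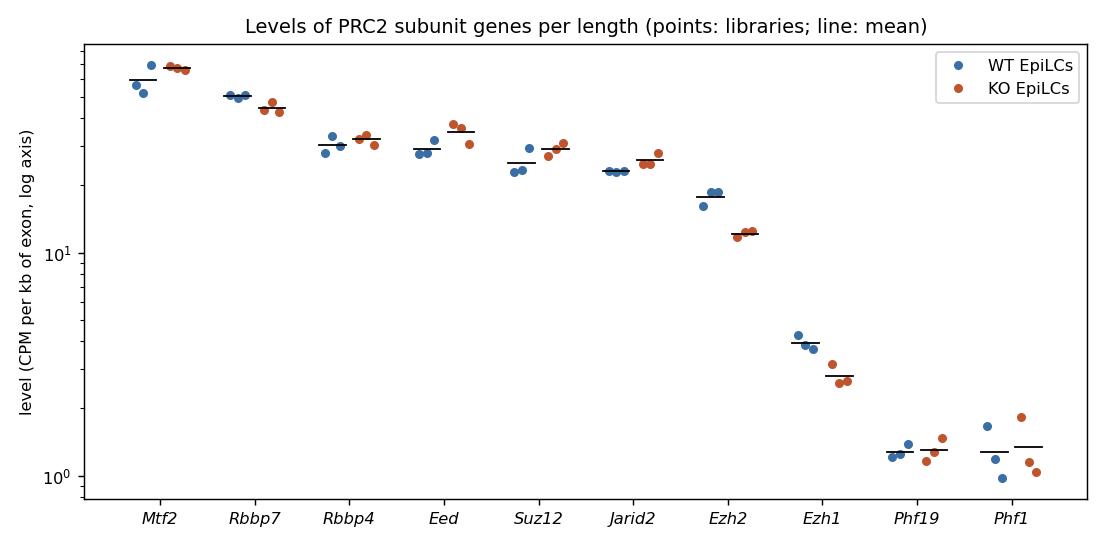
Level of each PRC2 subunit gene in CPM per kb of exon (log axis), with 1 point per library and a line at the mean of each group, ordered by the WT mean. Ezh1, Phf19 and Phf1 sit far below the other members in both groups, from 1.28 to 3.93 CPM per kb in WT EpiLCs.

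Ratios between members of the same library do not depend on the scaling between libraries, and 4 were compared with an exact two-sided permutation test over libraries, which cannot go below p = 0.1 with 3 against 3. Ezh2 exceeded Ezh1 per kb by 3.78, 4.88 and 5.06 times in WT replicates 1 to 3 and by 3.69, 4.74 and 4.70 times in KO replicates 1 to 3. Since both genes fell, their log2 ratio hardly differed, being 2.18 ± 0.230 in the WT and 2.12 ± 0.206 in the KO libraries (SD, n = 3, exact permutation p = 0.5, adjusted p = 0.667 over the 4 ratios). Ezh2 thus made up 81.9% ± 2.43 of the catalytic subunit transcripts per kb in WT EpiLCs and 81.2% ± 2.22 in KO EpiLCs. In each of the 3 replicate numbers the KO ratio was below the WT ratio.

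The ratio of Rbbp7 to Rbbp4 was 1.82, 1.48 and 1.69 in WT replicates 1 to 3 and 1.34, 1.40 and 1.42 in KO replicates 1 to 3, without overlap. This log2 difference of −0.26 reached the smallest p the design allows (exact permutation p = 0.1, adjusted p = 0.4). Between the accessory forms, the ratio of Jarid2 to the summed Polycomb-like genes was −1.41 ± 0.196 on the log2 scale in WT EpiLCs and −1.43 ± 0.122 in KO EpiLCs (SD, n = 3, exact permutation p = 0.9). Mtf2 made up 95.8% ± 0.820 of the Polycomb-like transcripts per kb in WT EpiLCs and 96.2% ± 0.362 in KO EpiLCs, its log2 ratio to Phf1 and Phf19 together differing by 0.14 (exact permutation p = 0.5).

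The genome positions of the members bear on these values, because many genes on chromosome 6, among them most around Ezh2, were lower in the KO clone. The shift was uneven along the chromosome. The genes tested within 5 Mb had a median log2FC of −0.44 around Rybp (start 100205526) and −0.28 around Aebp2 (start 140546644). Between these 2 genes, the 100 genes tested around Chd4 (start 125072944) had a median of −0.037. For each member, the genes tested whose start lies within 5 Mb of its own were taken as neighbours. The 55 neighbours of Ezh2 had a median log2 fold change of −0.49, with 30 called lower and 3 called higher, so that Ezh2 lay 0.062 below its neighbours (SD of this difference over the 3 replicate numbers 0.083), and 40% of the neighbours had a lower value than Ezh2. Over the whole of chromosome 6 (772 genes, 355 called lower and 35 higher) the median was −0.40, and Ezh2 lay 0.15 below it. Cul1, a ubiquitin ligase scaffold that overlaps the 3′ end of Ezh2 on the other strand, had a log2 fold change of −0.56 (adjusted p = 4.6e-04 from edgeR). Whether the lower Ezh2 level belongs to the gene or to its chromosome region cannot be told apart in this clone.

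Ezh1 stood further from its surroundings, although no test of this was made. The 193 neighbours of Ezh1 on chromosome 11 had a median of −0.066, and Ezh1 was 0.42 below it (SD 0.075 over the 3 replicate numbers), with 19.2% of the neighbours lower still. Of these neighbours, 39 were called lower and 7 higher. Within 2 Mb the median of 97 neighbours was −0.20, 29 of them being called lower and 1 higher, and the distance of Ezh1 from it was 0.29. The nearest gene starts were those of Plekhh3 (log2FC −1.10) and Tubg2 (−2.08), both called lower, and then Ramp2 (0.37, not called). Whether the lower Ezh1 level belongs to the gene or to its surroundings was not tested. Rbbp7 also lay below its surroundings, by 0.38, as the 37 genes around it on the X chromosome had a median of 0.20, or by 0.23 against the whole chromosome. The other 7 members lay between 0.047 and 0.22 above the median of their neighbours.

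**Figure D3:**
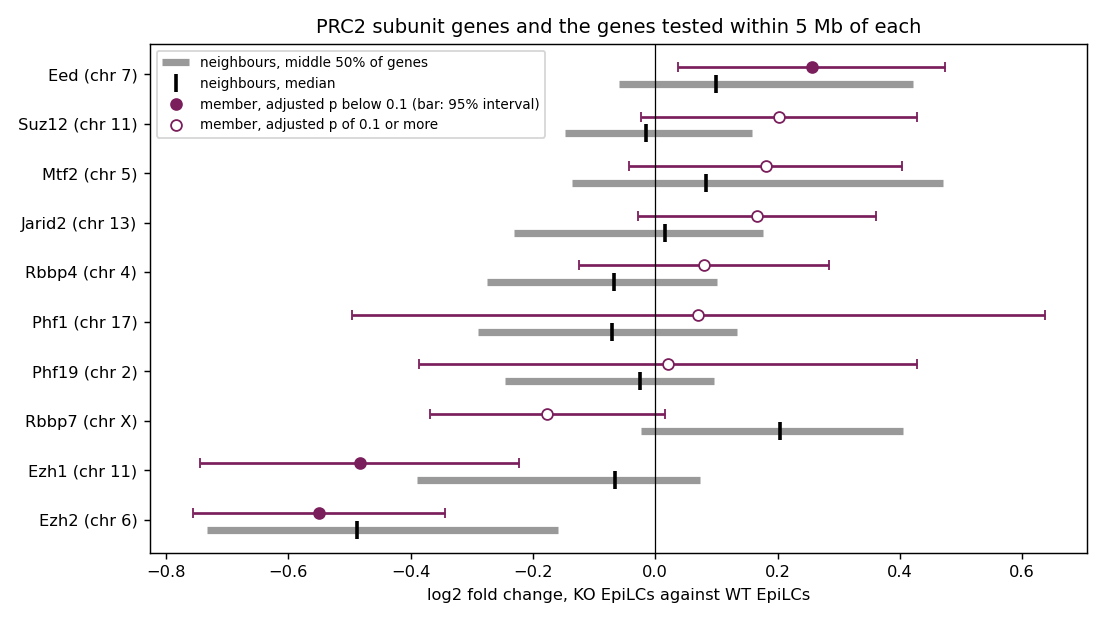
Log2 fold change of each member between KO and WT EpiLCs with its 95% interval (circles, filled where the adjusted p is below 0.1), beside the median (tick) and interquartile range (grey bar) of the genes tested within 5 Mb. Ezh2 at −0.55 lies close to the median of its neighbours at −0.49, and Ezh1 at −0.48 lies below its own at −0.066.

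**Figure D4:**
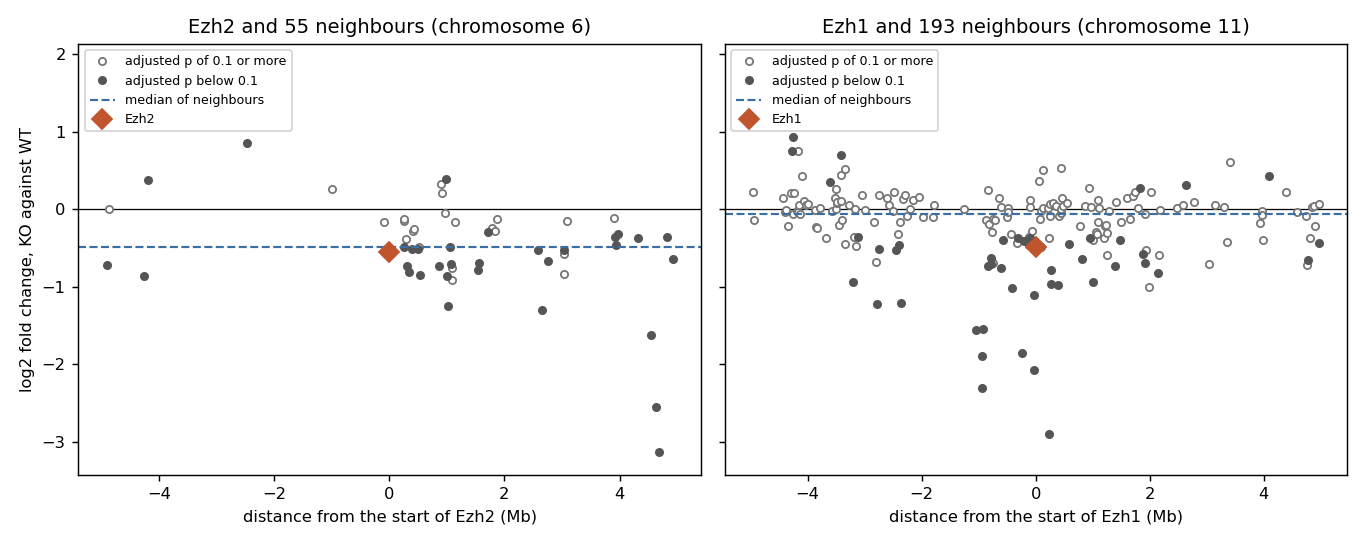
Log2 fold changes of the genes tested within 5 Mb of Ezh2 (55 genes) and of Ezh1 (193 genes) against the distance of their starts, in Mb, with filled points where the adjusted p is below 0.1, a dashed line at the median and a diamond for the member. Around Ezh2, 30 genes were called lower and most points lie below 0, whereas around Ezh1 they scatter about 0 with a group of lower genes near the member.

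Annotated genes overlap every member. The study names a stranded kit for total RNA libraries, but the sources do not state whether counting used the strand. The overlap was largest in bases for Suz12 with Crlf3 (log2FC 0.027) and Jarid2 with Dtnbp1 (−0.13), and Phf1 shares 4100 bases with Cuta (0.11), none of which passed the test. Cul1, with 35354 counts in all, shares 3248 bases with Ezh2 and was lower like it (log2FC −0.56, edgeR adjusted p = 4.6e-04). Its part in the Ezh2 counts was not tested. Txlng, which overlaps the last 185 bases of Rbbp7, was higher in KO EpiLCs (log2FC 0.51, edgeR adjusted p = 0.0056), opposite in sign to Rbbp7. Sync, within which part of Rbbp4 lies, was lower at 116 counts in all (log2FC −1.05, edgeR adjusted p = 0.0770).

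The genes with the most similar course over the 6 libraries were sought among 9859 others with an average log2 CPM of at least 3, by the root mean square difference of centred log2 CPM. For Ezh2 these were Edem1, also on chromosome 6 (difference 0.014), Ndfip1 (0.032) and Cth (0.042). For Ezh1 they were Polr2a, also on chromosome 11 (0.048), Myadm (0.049) and Traf3ip1 (0.053), and for Eed they were Eif1a (0.034), Cmpk1 (0.036) and Fancb (0.036).

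Of the 5 other PRC2 partners, 3 passed the test, 2 higher and 1 lower, where 24.3% of all genes tested passed. Aebp2, the zinc finger partner of JARID2 in PRC2.2, fell from 130 ± 6.98 to 102 ± 3.18 CPM (SD, n = 3), with a log2FC of −0.34 (edgeR adjusted p = 0.0147). It lies on chromosome 6 like Ezh2, and its 35 neighbours had a median of −0.28, with 13 called lower and 0 higher. Lcor and Lcorl, whose loci encode the PALI proteins of PRC2.1, rose, with log2FC values of 0.31 and 0.47 (edgeR adjusted p = 0.0481 and 0.0079). Epop, which links PRC2.1 to elongin, and Ezhip, an inhibitor of the enzyme, had log2FC values of −0.016 and −0.030 and did not pass.

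Polycomb repressive complex 1 (PRC1), which ubiquitinates histone H2A and binds the PRC2 mark, was represented by 23 genes, all tested. In KO EpiLCs 5 rose and 2 fell, 30.4% in all against 24.3% of all genes tested. The median log2 fold change was 0.037. Its catalytic pair, Ring1 and Rnf2, had log2FC values of −0.12 and 0.061 and did not pass. L3mbtl2 (0.39), Bcor (0.48), Scmh1 (0.66) and Phc3 (0.41), subunits of variant or canonical PRC1, rose. Rybp, a subunit of variant PRC1, and Cbx6, a reader of the PRC2 mark, fell by 0.44 and 0.33. Rybp lies on chromosome 6, where its 21 neighbours had a median of −0.44.

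Enzymes that remove Polycomb marks, listed with their cofactors, gave 1 call among 6 genes (16.7%, against 24.3% of all genes tested). The H3K27 demethylase Kdm6b fell from 7.23 ± 2.04 to 4.72 ± 0.695 CPM (SD, n = 3), with a log2FC of −0.60 (edgeR adjusted p = 0.0906). Its libraries overlapped between groups, and among the fits with a library left out the call held only without WT replicate 3. The other demethylase, Kdm6a, had a log2 fold change of −0.0054. For the other RBBP4 and RBBP7 complexes (NuRD, SIN3, CAF-1 and HAT1), 5 of 18 genes passed (27.8%, against 24.3% of all genes tested), 2 higher and 3 lower, with a median of −0.016. Chd3, a remodelling ATPase of NuRD, had the largest change of the 18 and went from 17.2 ± 0.726 to 6.18 ± 1.37 CPM, with a log2FC of −1.47 (edgeR adjusted p = 1.49e-05). Sin3b (−0.44) and Chd4 (−0.23) were lower, and Sap30 (0.39) and Chaf1b (0.67) higher. Chd4 lies on chromosome 6, where its 100 neighbours had a median of −0.037, with 10 called lower and 8 higher. Chaf1b lies on chromosome 16, where its 57 neighbours had a median of 0.46, 36 of them called higher.

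Developmental regulators that are textbook PRC2 targets in mESCs were mostly below the filter on low counts. Of 43 such genes, 33 had too few counts to be tested, 4 of them with no count in any library, and the summed level of the list was 89.2 to 96.2 CPM in WT libraries, against 90.0 to 103 in KO libraries. Among the 10 tested, 2 were higher and 1 lower (30%, against 24.3% of all genes tested), with a median log2 fold change of 0.12. Gata6, a regulator of primitive endoderm, rose from 1.39 ± 0.328 to 3.51 ± 1.48 CPM (SD, n = 3) and Eomes, a regulator of the primitive streak, from 5.43 ± 0.376 to 9.94 ± 1.54 CPM. The cell cycle inhibitor Cdkn2b fell from 25.3 ± 3.02 to 17.3 ± 1.81 CPM. At this depth the untested genes give no information on whether PRC2 targets differ between WT and KO EpiLCs.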

How the data were processed

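RNA-seq of WT and Oct6 KO EpiLCs at 48 h (3 libraries each) was analysed from the raw counts per gene deposited by the authors, who ran FastQC and Fastp on the reads before two-pass alignment by STAR (build GRCm39), which also produced the counts. STAR version, annotation release and strand setting are not given in the sources used here. Identifiers were matched to GENCODE M39: 54749 of 55416 were found, and the rest held 0.0602% of counts. Counts were tested in R 4.3.3 with edgeR 4.0.16 (TMM, filterByExpr with a minimum count of 10, quasi-likelihood test, genotype as the only term, Benjamini-Hochberg adjustment over 15746 genes, threshold 0.1 as in the study). The study also required a minimum fold change for its list of differentially expressed genes, which was not applied here. Standard errors were derived from the F statistic and 95% intervals from its degrees of freedom. The procedure was tested on simulated counts with known fold changes, the same variation set for all genes and no pairing of replicates.

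The members and lists were chosen with earlier results of these data known. Named genes were the members, Oct6, the other PRC2 partners and, per list and direction, at most 4 genes that passed, by smallest p. Library totals ran from 10995505 to 14680930 counts, which limits the precision of Phf1 and Phf19 most. The series calls the replicates biological and paired, and over 13228 genes the deviations from group means correlated at 0.252, 0.298 and 0.124 between libraries with the same number and from −0.225 to −0.0397 between the others. Libraries of a group were not copies (chi-square per degree of freedom 6.94 to 11.8). Alternatives were DESeq2 1.42.0, RLE size factors, library totals, other filters, the replicate block, an adjusted p of 0.05 and each library left out. TMM factors without chromosomes 6 and 16, list counts without these chromosomes and canonical transcript lengths were added after seeing the data.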

Additional observations from a re-analysis of the deposited data

How the results depend on the processing

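Ezh2 and Ezh1 kept their direction and their call under all 15 alternatives. The call of Eed was lost under DESeq2 (log2 fold change 0.25), DESeq2 with the replicate block (0.25), library totals alone (0.23), no filter (0.25), an adjusted p below 0.05 (0.26) and TMM factors without chromosomes 6 and 16 (0.25, added after seeing the data), each of which left 0 members called higher. With the replicate block in edgeR, 2 members were called higher, Suz12 being added at a log2 fold change of 0.21, and the block changed no other call among the members. Over all 15746 genes tested, the block raised the calls from 3833 to 4764, and those higher from 1864 to 2357. Library totals alone turned Phf19 to −0.0021. The call of Kdm6b was lost under DESeq2 (adjusted p = 0.152). For the counts of DE genes, 3833 in all, no alternative differed by more than 1.5 times.

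Across the 6 fits that each omit a library, the members called ranged from 2 to 5 (5 without WT replicate 3), those called higher from 0 to 3, and those called lower stayed at 2. The background moved as well. Among all genes tested, 3058 (without KO replicate 1) to 3790 (without WT replicate 3) were called in these fits. Those called higher ran from 1433 (without KO replicate 3) to 1930 (without WT replicate 3). The number of genes tested also differed between the fits. The log2 fold changes then ran from 0.19 to 0.34 for Eed, 0.14 to 0.33 for Suz12, 0.090 to 0.31 for Mtf2, −0.22 to 0.32 for Phf1 and −0.074 to 0.095 for Phf19. The log2 ratio difference ran from −0.19 to 0.057 for Ezh2 to Ezh1 and from −0.13 to 0.061 for Jarid2 to the Polycomb-like genes, the first changing sign without WT replicate 3 (0.017) or KO replicate 1 (0.057). Calls ranged from 4 to 7 for PRC1, 0 to 1 for the opposing enzymes and their cofactors and 3 to 5 for the other RBBP complexes. The cause of these changes was not tested, and each of these fits also had fewer libraries than the main one. Paired by replicate number (replicate block), the mean differences of the 4 ratios equal the unpaired ones, and the smallest exact sign-flip p for 3 pairs is 0.25. Without chromosomes 6 and 16, 2 of 9 members passed (22.2%, against 21.6% of all genes tested there), and 6 of 20 PRC1 genes.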
